A study of Homo sapiens with 2 samples.

Results

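The loci of 10 genes of the AP-1 transcription factor family were described in CAMA-1, an established human breast cancer cell line grown from mammary epithelium. The genes were FOS, FOSB, FOSL1, FOSL2, JUN, JUNB, JUND, BATF, BATF3 and ATF3, chosen by name among the 20033 protein-coding genes of GENCODE release 44, and not by any measured value. Earlier results of these data were known when the genes were chosen. Around each gene, the open regions that overlapped the annotated gene or the 50 kb on either side were collected, which gave 282 of the 215195 regions called in both replicates. Open chromatin was profiled by ATAC-seq, an assay that cuts accessible DNA with the Tn5 transposase and sequences the fragments. The data were 2 biological replicates of untreated, adherent CAMA-1 cells in medium with fetal bovine serum, a single condition of a single line. There were therefore no groups to compare, and each value is given in both replicates beside the same value over all protein-coding genes or all regions. RNA was not analysed here, so an open locus is not a measure of expression.

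AP-1 is a dimer of proteins that share a basic region, which touches DNA, and a leucine zipper, which holds the partners together. JUN proteins pair with each other or with FOS proteins, whereas FOS proteins need a JUN partner. BATF and BATF3 lack a transactivation domain and pair with JUN proteins, and ATF3 is a stress-induced member that often represses. Many of these genes are immediate early genes, whose transcription starts within minutes of serum, growth factor or stress signals because factors such as SRF, at the CArG box, and CREB or ATF proteins, at the CRE, already sit near their start sites. AP-1 dimers bind the motif TGAGTCA, also called the TPA response element, and FOSL1 and FOSL2 are often linked to invasive breast cancer cells.

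The stretches upstream of 5 transcription start sites (TSSs) are shown. Those of FOS, FOSB, JUN and JUND were picked because they are known for serum, cAMP or AP-1 response elements and lay under peaks in both replicates. The BATF stretch was added beside them. A JUNB stretch, searched in the same way, is described below but not shown. All were read from hg38 on the strand of the gene, 5′ to 3′. FOS is shown at chr14:75278508-75278807, FOSB at chr19:45467656-45467955, JUN at chr1:58784048-58784247, JUND at chr19:18281623-18281822 and BATF at chr14:75522269-75522468. Capitals mark the CArG box, the CRE (TGACGTCA) and 2 variants known from the FOS (TGACGTTT) and JUN (TGACATCA) promoters, which were added after the sequences were read.
FOS: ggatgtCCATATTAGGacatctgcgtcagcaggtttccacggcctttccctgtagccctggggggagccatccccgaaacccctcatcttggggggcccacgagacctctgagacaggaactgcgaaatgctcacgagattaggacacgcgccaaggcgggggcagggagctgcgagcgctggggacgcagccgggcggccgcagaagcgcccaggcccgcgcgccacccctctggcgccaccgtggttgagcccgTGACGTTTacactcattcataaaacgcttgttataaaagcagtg
FOSB: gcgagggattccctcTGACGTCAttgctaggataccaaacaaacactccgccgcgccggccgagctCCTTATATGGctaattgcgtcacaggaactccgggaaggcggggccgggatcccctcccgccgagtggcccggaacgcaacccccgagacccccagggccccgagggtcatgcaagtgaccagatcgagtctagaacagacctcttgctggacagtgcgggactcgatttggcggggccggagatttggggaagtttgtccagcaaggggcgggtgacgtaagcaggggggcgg
JUN: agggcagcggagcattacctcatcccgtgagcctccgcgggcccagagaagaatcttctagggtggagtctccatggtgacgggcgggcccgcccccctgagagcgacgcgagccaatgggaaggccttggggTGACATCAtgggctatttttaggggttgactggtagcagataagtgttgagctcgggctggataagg
JUND: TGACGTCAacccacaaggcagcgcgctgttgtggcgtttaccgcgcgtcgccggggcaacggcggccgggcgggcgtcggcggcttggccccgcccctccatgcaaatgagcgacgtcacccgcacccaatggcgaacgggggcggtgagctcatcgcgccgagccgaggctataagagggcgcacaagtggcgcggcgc
BATF: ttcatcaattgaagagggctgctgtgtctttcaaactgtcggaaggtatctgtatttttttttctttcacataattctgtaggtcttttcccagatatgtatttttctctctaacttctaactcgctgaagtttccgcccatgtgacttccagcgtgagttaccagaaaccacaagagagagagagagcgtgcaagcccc

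In FOS, the CArG box of the serum response element began at −314 bp from the TSS and the variant TGACGTTT at −64 bp. FOSB held a CRE at −325 bp and a CArG box at −274 bp, and JUND held a CRE at −200 bp. The JUN stretch held TGACATCA at −67 bp. No match to any of these motifs was found in the BATF stretch or in that of JUNB, both from −200 to −1 bp. The FOS and FOSB stretches began at −320 and −340 bp, and their CArG boxes and the FOSB CRE lay beyond −200 bp. The BATF and JUNB stretches did not reach that far, so the lack of a match in them is no contrast. The 2 variants were taken from the FOS and JUN promoters, so those matches were given beforehand. A match is a string of letters and not evidence of binding. In the RefSeq promoter table (GRCh38.p14; 250 bp before to 50 bp after each start), 8 of the 10 genes had an entry, and FOSL1 and BATF3 had none. Among all 21613 protein-coding promoters in that table, 1.26% held a CArG box, 2.29% the CRE, 4.03% the AP-1 motif, 2.14% TGACATCA and 0.472% TGACGTTT on either strand. The CArG boxes of FOS and FOSB and the CRE of FOSB lay farther upstream than that window reached. Among the members with an entry, JUND alone held a CRE in the window, and none held a CArG box. The GC content of the promoters ran from 46% in BATF to 77% in JUND, with a median of 62.3% over all promoters. ATF3 had 2 promoters in the table, both away from its canonical start, with 48% and 46.3% GC.

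The peak lists, called separately, held 245736 peaks for replicate 1 and 259745 for replicate 2. Strength is given as the deposited fold enrichment, the highest stack of reads in a peak against a single background for the whole genome, which was 3.35 stacked reads in replicate 1 and 3.52 in replicate 2. The read depth is not in the lists, but the fold enrichments were whole steps of 1 stacked read, which gave the height of each peak (a median of 35 reads in both replicates). Intervals on heights cover counting error only, since reads without molecular identifiers need not be independent molecules. Because the background is genome-wide, a difference in DNA copy number between loci and a difference in accessibility cannot be told apart in these values. As a check of the label, all 7 luminal epithelial markers had a TSS peak in both replicates, with a median fold enrichment of 87.6. Of the basal markers 3 of 4 had one, with a median of 10.3, and of the stromal markers 4 of 4, with a median of 42.1. Of the blood markers, 2 of 4 had one, and the other 2 had no TSS peak in either replicate.

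All 10 AP-1 family genes had a peak within 1 kb of an annotated TSS in both replicates, against 79.3% of protein-coding genes. Their canonical TSS itself lay under a peak in 10 of 10, against 65.0% of protein-coding genes. The strongest TSS peaks had a median fold enrichment of 83.9 over the 10 genes, and the gene means ran from 47.0 to 160.7. Over all genes with a TSS peak the median was 51.1 in replicate 1 and 52.6 in replicate 2. The members had a median percentile of 75.4 among these genes. By the strongest peak, 9 of 10 lay above the median of all genes, 5 above the 75th percentile and only FOSL1 above the 90th. The 9 included BATF through a peak that ended upstream of its TSS, and the peak over its canonical start had 16.3 and 14.6. Start sites of protein-coding genes thus ranged widely, and most of the family sat in the upper part of that range without standing at its end.

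**Figure D1:**
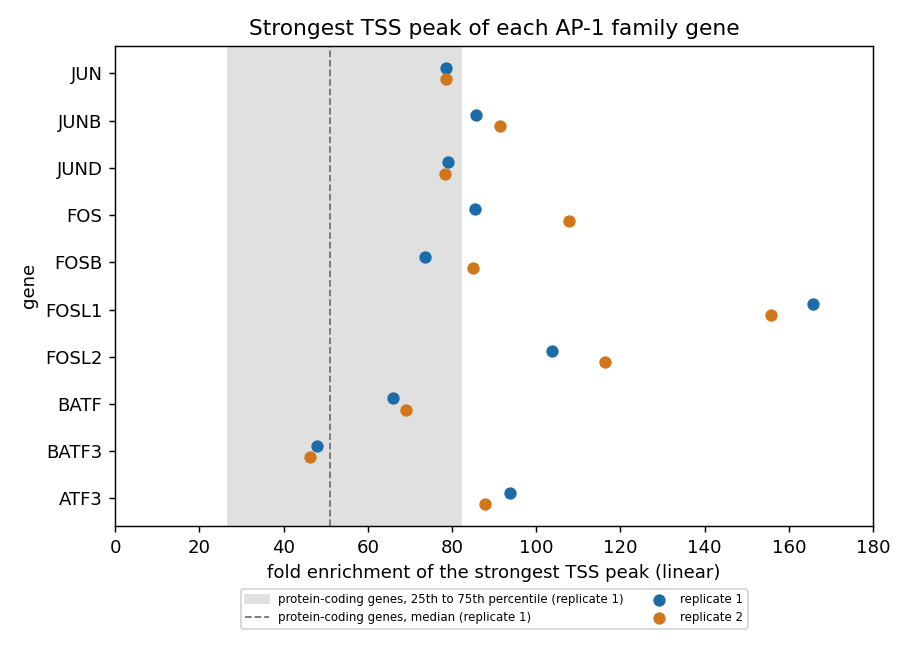
Fold enrichment of the strongest TSS peak (linear x axis) of each gene (y axis) in replicates 1 and 2 (points), with the 25th to 75th percentile (grey band) and median (dashed line) of all protein-coding genes with a TSS peak in replicate 1. FOSL1 stood highest at 165.7 and 155.7, and BATF3 was the only gene below the median in both replicates by this measure. The peak over the canonical start of BATF, not plotted, had 16.3 and 14.6.

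Among the JUN proteins, which take part in most AP-1 dimers, the 3 genes had similar TSS peak strength. JUN, the founding member, had 78.5 in replicate 1 and 78.5 in replicate 2, from heights of 340 and 354 reads. JUND, the member that is expressed most constantly in many tissues, had 79.2 and 78.3. JUNB, which can restrain JUN, had 85.6 and 91.3 in a peak that ended upstream of its TSS, and 64.9 and 78.7 in the peak over the TSS itself. By the strongest peak within 1 kb, the values of JUNB lay above those of JUN and JUND without overlap, but at the start itself JUNB lay below both in replicate 1. For the strongest peaks, the counting intervals of the JUN and JUNB heights overlapped in both replicates (305 to 378 against 334 to 411 reads in replicate 1, and 318 to 393 against 373 to 454 in replicate 2). The 3 means were 78.5, 88.5 and 78.7, and the order of the 3 genes was not resolved.

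Among the FOS proteins, the 4 genes were spread more widely, with means from 79.3 to 160.7. FOSL1 (FRA1), which lacks the transactivation domain of FOS, had 165.7 and 155.7, the highest values of the family in both replicates. FOSL2 (FRA2) had 103.8 and 116.3. FOS had 85.4 and 107.7, the widest gap between replicates in the family, and FOSB had 73.6 and 84.9. FOSL1 did not overlap any other gene, and FOSL2 and FOS overlapped. FOS and FOSB did not overlap, but the lower FOS value (85.4) and the higher FOSB value (84.9) almost met, so only the first place in this order was clear of the spread between replicates.

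BATF, BATF3 and ATF3 differed from each other. ATF3 had 93.9 and 87.8. BATF, best known from lymphocytes, had 66.0 and 69.0. BATF3, known for its part in dendritic cell development, had 47.9 and 46.2, the lowest of the family by the strongest peak within 1 kb, and the values of the 3 genes did not overlap. The BATF peak, however, ended upstream of the TSS. The peak over the BATF start itself had 16.3 and 14.6, so at the canonical start BATF lay below BATF3 in both replicates. The level of the surroundings was not the same for all loci. The median TSS peak of protein-coding genes within 5 Mb was 74.6 and 71.4 around BATF3 and 76.6 and 72.5 around ATF3, but ran from 42.1 to 57.2 around the other 8 genes. Set against its surroundings, BATF3 stood at 0.642 of the local median in replicate 1 and 0.647 in replicate 2. The strongest TSS peaks of the other 9 genes stood above their local medians. The peak over the BATF start (16.3 and 14.6), however, lay below the medians around BATF (52.9 and 57.2), which were taken over strongest peaks.

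The height of the TSS peak in stacked reads, which moves with depth, was higher in replicate 2 than in replicate 1 in 8 of the 10 genes, and the fold enrichment in 6 of the 10. The ratio of heights (replicate 2 over replicate 1) had a median of 1.06 over the members and 1.07 over all genes with a TSS peak in both. The 95% exact interval of the ratio lay above 1 in 3 genes and below 1 in 0. For FOS the heights were 370 reads (95% interval 333 to 410) and 486 reads (444 to 531), a ratio of 1.31 (1.15 to 1.51). FOSB had a ratio of 1.20 (1.03 to 1.40) and FOSL2 of 1.17 (1.03 to 1.33), and both of these intervals held the median of all genes. The 5th to 95th percentile over all genes was 0.866 to 1.32, so the FOS ratio lay just inside the range of 9 in 10 genes.

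**Figure D2:**
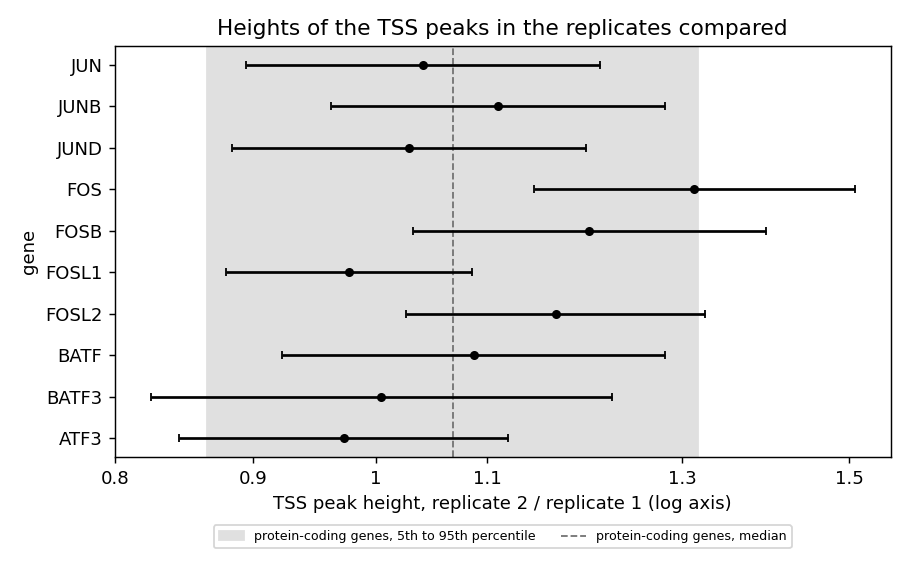
Height of the strongest TSS peak in replicate 2 over replicate 1 (x axis, log scale) for each gene (y axis), with exact 95% intervals from counting error (bars), the 5th to 95th percentile of all protein-coding genes (grey band) and their median (dashed line). All 10 ratios lay in the band, with FOS at 1.31 nearest its upper edge.

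The width of the peaks set several of these genes apart more than their height did. The members' strongest TSS peaks had a median width percentile of 97.9 among all genes with a TSS peak, whose median width was 1029 bp in replicate 1 and 1035 bp in replicate 2. In 6 of the 10 genes the peak was wider than the 95th percentile in both replicates, against 3.96% of protein-coding genes with a TSS peak in both. These were JUN (4623 and 4611 bp), JUND (9386 and 9461 bp), FOS (7756 and 7800 bp), FOSB (9718 and 10583 bp), FOSL2 (3600 and 4231 bp) and ATF3 (3474 and 3479 bp). The JUNB peak, of 2438 and 2816 bp, passed that mark in replicate 2 only. FOSL1 had the strongest peak but not a wide one (965 and 851 bp), and BATF (1119 and 1123 bp) and BATF3 (1167 and 1131 bp) were also of common width. Height and width thus did not go together within the family. The 10 other immediate early genes listed for comparison had a median width percentile of 95.2, whereas 13 other bZIP genes had 81.3 and 14 genes of the upstream signalling 68.5, so wide start-site peaks were not particular to the AP-1 genes.

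**Figure D3:**
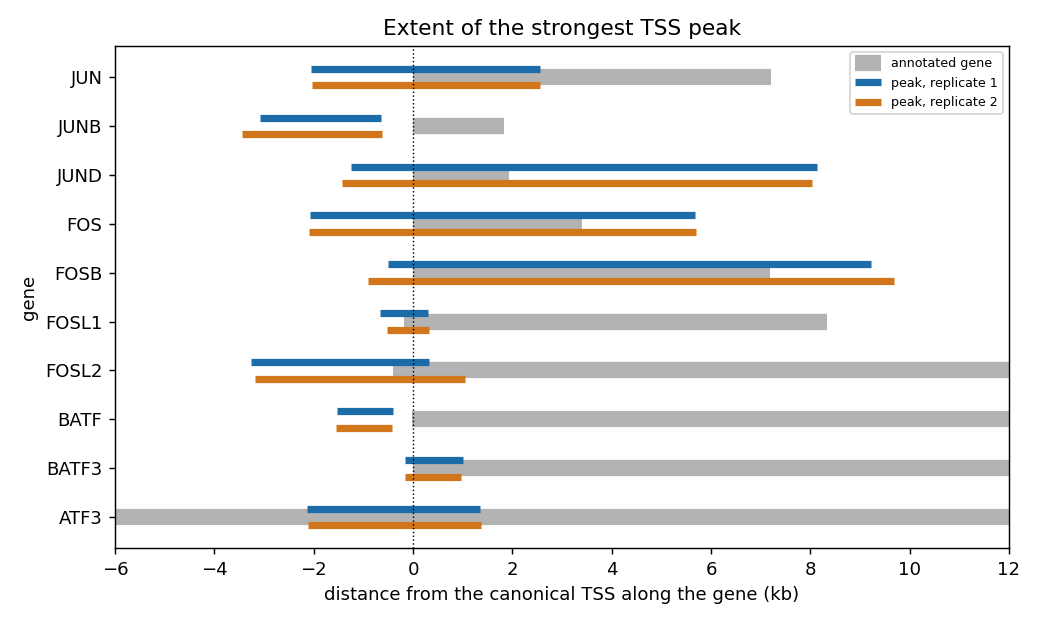
Extent of the strongest TSS peak of each gene in replicates 1 and 2 (coloured bars) beside the annotated gene (grey), in kb along the gene from its canonical TSS (x axis). The peaks of JUND, FOS and FOSB ran past both ends of the gene, whereas the strongest peaks of JUNB and BATF ended upstream of the TSS.

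In 4 genes, JUNB, JUND, FOS and FOSB, the whole annotated gene lay inside a single peak in both replicates. These were 4 of the 6 members of at most 10 kb, against 1.87% of protein-coding genes of that length and 0.489% of all protein-coding genes. FOS, of 3405 bp at chr14:75278826-75282230, lay inside a peak from −2081 to +5674 bp of the TSS in replicate 1 and from −2102 to +5697 bp in replicate 2. FOSB, of 7185 bp at chr19:45467995-45475179, lay inside a peak from −503 to +9214 bp in replicate 1 and from −905 to +9677 bp in replicate 2. JUND, an intronless gene of 1929 bp at chr19:18279694-18281622, lay inside a peak from −1243 to +8142 bp and from −1436 to +8024 bp, so that most of this peak lay past the end of the gene. The JUND peak also covered ground within 1 kb of a start of IQCN, a neighbouring protein-coding gene, so its height and width cannot be assigned to JUND alone. JUNB, of 1830 bp at chr19:12791486-12793315, is also intronless and was covered by a peak of 64.9 and 78.7, weaker than its upstream peak and also within 1 kb of a start of the neighbouring gene HOOK2.

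The other 6 genes were covered in part. Peaks took 70.7% and 68.7% of JUN (chr1:58776845-58784048), 56.8% and 42.2% of FOSL1 (chr11:65892049-65900573), 37.2% and 37.1% of FOSL2 (chr2:28392448-28417317) and 30.7% and 30.0% of ATF3 (chr1:212565334-212620777). BATF (chr14:75522455-75546993) was covered over 8.48% and 8.68%, and BATF3 (chr1:212686417-212699840) over 7.49% and 7.17%. The median over all protein-coding genes was 5.13% and 5.40%. FOSL1 had the largest gap between replicates in this measure.

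GENCODE gives these genes 40 start sites in all, and 37 of them lay under a peak in both replicates. The same share over the start sites of all protein-coding genes was not counted. Starts under a shared wide peak are not separate observations, so the count follows in part from peak width. In JUN, JUND, FOS, FOSB, FOSL1 and BATF all of the starts of a gene shared a single peak, so alternative starts could not be told apart there. ATF3 has starts spread over about 50 kb, and they differed strongly. Its canonical start had 93.9 and 87.8, a start at −43427 bp had 5.29 and 3.32, and a start at +6261 bp had 17.0 and 13.5. A further ATF3 start at +4675 bp lay under a peak in replicate 2 only (19.9). Both non-canonical starts of BATF3, at +1085 and +12331 bp, lay under no peak in either replicate. FOSL2 had a weaker second start at +2653 bp, with 24.6 and 28.7. In BATF the strongest peak ended at −413 and −421 bp from the TSS, and the start itself lay under a separate peak of 16.3 and 14.6.

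Around the 10 genes, 329 peaks of replicate 1 and 337 of replicate 2 gave 282 regions called in both, and 7 of these counted for both ATF3 and BATF3, which lie near each other and point towards each other on chromosome 1. Counted once for each gene, 20 of 289 entries lay within 1 kb of a start of the gene itself. A further 57 lay within 1 kb of a start of another protein-coding gene, 102 elsewhere upstream, 81 downstream, 21 in introns and 8 in exons. The number of regions per window ran from 16 at JUN and 19 at BATF3 to 35 at FOSB and 42 at FOSL1. Per 100 kb of window the median was 25.1, against 11.4 around all protein-coding genes. The percentiles of this density ran from 62.2 for JUN to 98.3 for FOSL1. The windows also held 28 other protein-coding genes, of which 27 had a TSS peak in both replicates. The exception was BEST2, a chloride channel gene near JUNB, with a peak of 6.41 in replicate 2 only. The density was not adjusted for the number of neighbouring genes.

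Of the 282 regions, 49 (17.4%, Wilson 95% interval 13.4 to 22.2%) had a mean fold enrichment of at least 50, against 9.26% of all regions. Away from the starts of protein-coding genes, 25 of 205 did (12.2%, 8.40 to 17.4%), against 6.32% of all such regions. Neighbouring regions share a locus and its copy number, so these intervals cover counting error only and are too narrow for a statement about loci. The median fold enrichment was 12.4 for the regions of the family and 9.84 for all regions, and the median width was 486.5 and 363 bp. The regions around these genes were thus somewhat stronger and wider than the common region.

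**Figure D4:**
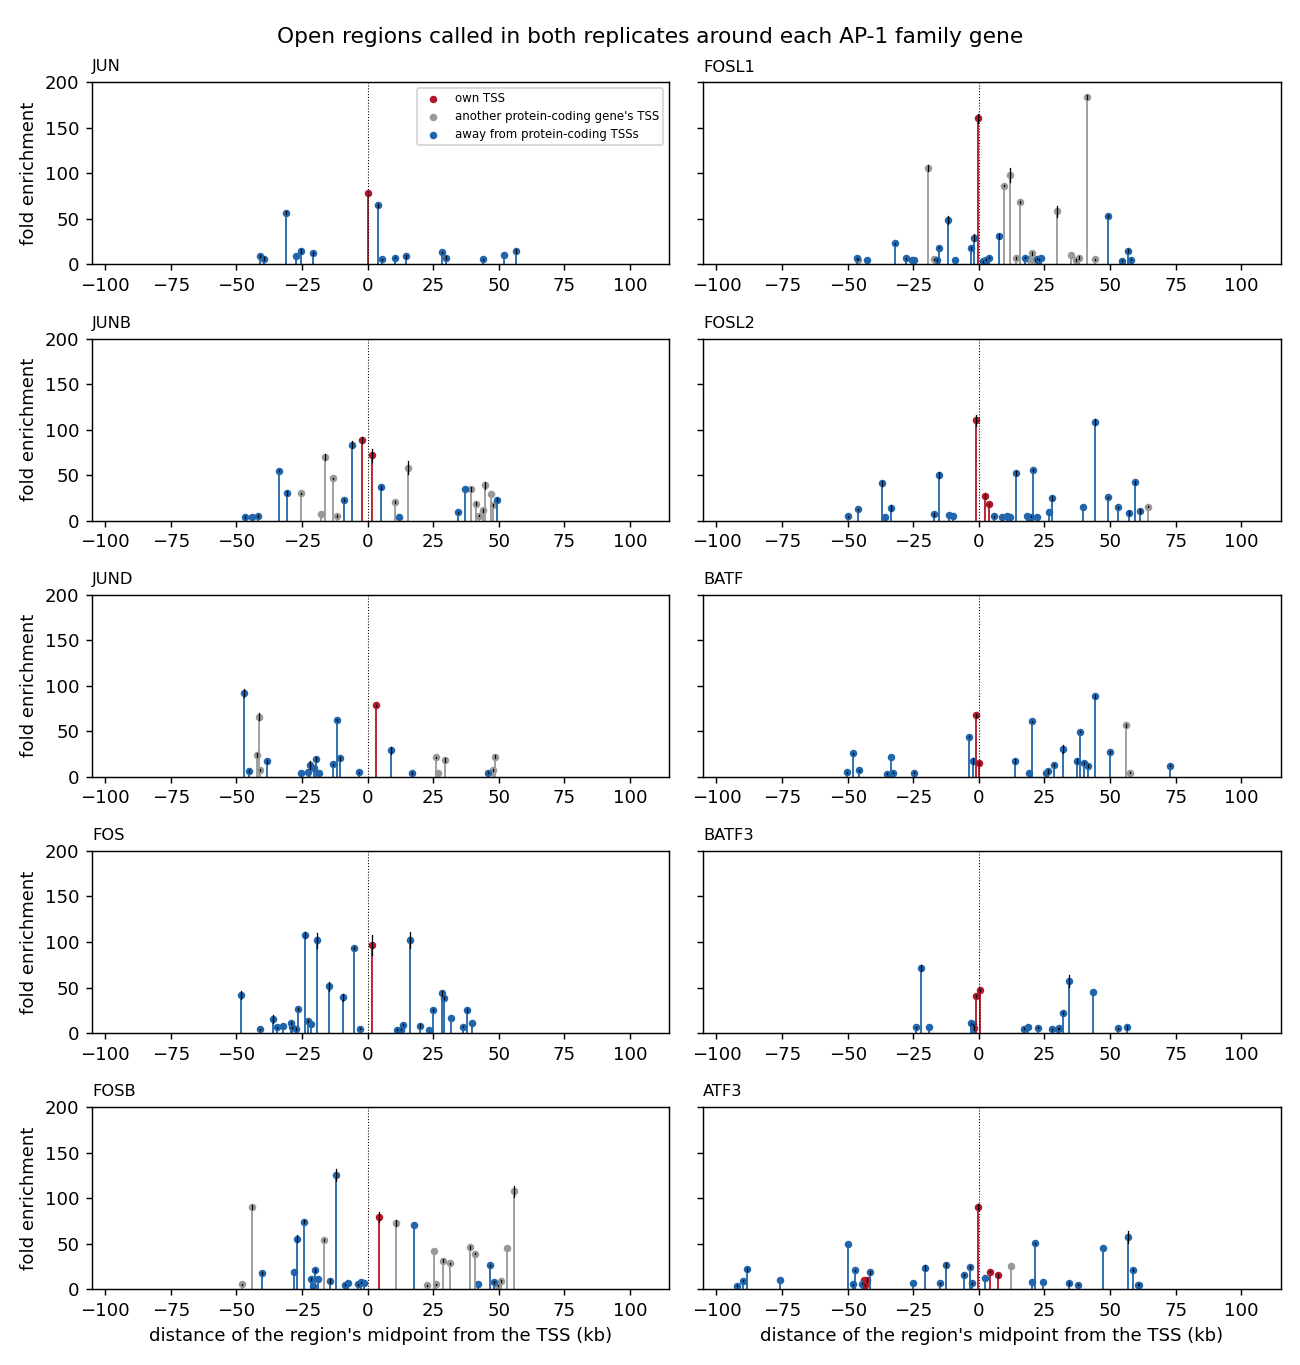
Fold enrichment (y axis, mean of the replicates, with black bars between the values of the replicates) of each region called in both replicates, against the distance of its midpoint from the canonical TSS along the gene in kb (x axis), for the 10 genes. Red marks regions within 1 kb of a start of the gene itself. Grey marks those within 1 kb of a start of another protein-coding gene, and blue all other regions. At FOS, 5 blue regions reach 50, at JUN 2.

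Regions away from protein-coding starts with a mean of at least 50 were found in every window. They were 5 of 30 at FOS, 4 of 19 at FOSB, 4 of 28 at FOSL2, 2 of 12 at JUNB, 2 of 15 at JUN, 2 of 16 at JUND, 2 of 17 at BATF3, 2 of 23 at BATF, 2 of 27 at ATF3 and 1 of 25 at FOSL1. At FOS, 30 of 31 regions in the window lay away from such starts. The strongest, at −23.9 kb from the TSS and chr14:75254083-75255749, had 110.7 and 104.6, and regions at −19.4 kb (93.4 and 109.9), +16.2 kb (93.4 and 111.4) and −5.3 kb (92.5 and 94.4) were close to it. The FOS start itself, with 85.4 and 107.7, overlapped all 4 of them in strength. At FOSB the strongest region lay at −12 kb, chr19:45455217-45456735, with 118.5 and 132.2, above the FOSB start in both replicates.

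In 4 windows the strongest region, by the mean of the replicates, lay within 1 kb of a start of the gene itself. These were the windows of JUN, JUNB, FOSL2 and ATF3. The JUNB region, however, ended upstream of the TSS. The region over the JUNB start had a mean of 71.8, below the 83.3 of the region at −6 kb. In the other 6 windows a region elsewhere was stronger than the gene's own start. JUND had a stronger region at −47.1 kb (95.9 and 87.3), BATF at +44.2 kb (86.5 and 90.2) and BATF3 at −22 kb (74.6 and 68.3). In the FOSL1 window the strongest region was the shared start of CFL1, which encodes the actin-binding protein cofilin, and MUS81, which encodes a DNA repair nuclease, with 181.5 and 186.4. The JUN window had the lowest density of the family (14.9 regions per 100 kb), though above the median of 11.4 around all protein-coding genes. It held 0 starts of other protein-coding genes. The strongest JUN region away from the start lay 3.9 kb downstream of the TSS, in the 3′ part of the annotated gene, with 63.5 and 66.3. FOSL2 had a region of 105.4 and 111.9 at 44.4 kb downstream, which was stronger than its own start (103.8 and 116.3) in replicate 1 and weaker in replicate 2. Which gene any of these regions acts on was not tested.

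The AP-1 motif itself, TGAGTCA or its reverse complement TGACTCA, was then counted in the regions. It was found in 51 of the 282 regions (18.1%, Wilson 95% interval 14.0 to 23.0%), against 13.7% of all regions. Within 1 kb of a protein-coding start the share was 16 of 77 (20.8%, 13.2 to 31.1%), against 13.1%, and away from starts it was 35 of 205 (17.1%, 12.5 to 22.8%), against 13.8%. The background share lay just under the interval for every region and for starts and inside it away from starts, and the regions of the family were wider. Neighbouring regions share a locus, so these intervals cover counting error only and are too narrow for a statement about loci. When only about 200 bp around the midpoint of each region was searched, the share was 7.09% (4.64 to 10.7%) against 7.50% of all regions. Around midpoints the interval of the family thus held the share of all regions. The lists give no summits, however, so the midpoint of a wide region need not lie at its most open point. At starts the midpoint share of the family lay below that of all such regions, and away from starts above it. Whether width accounts for the higher share over full regions was therefore not tested.

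**Figure D5:**
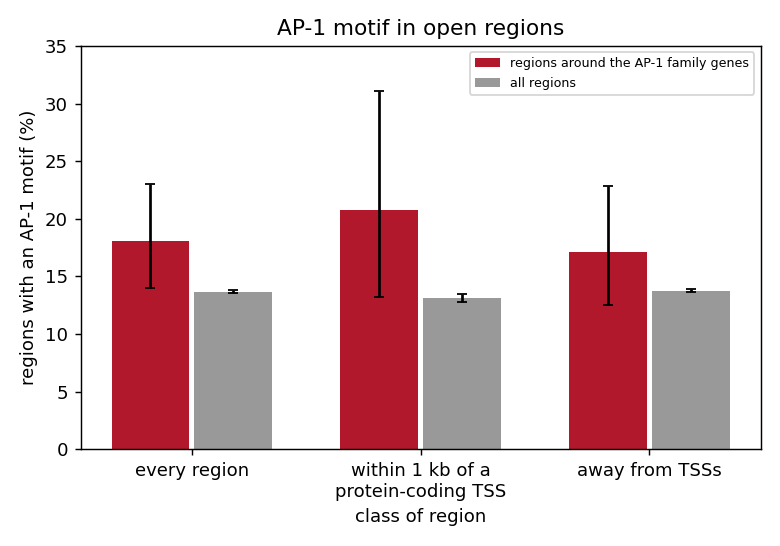
Percent of regions that held the AP-1 motif (y axis, bars from 0) among the 282 regions around the AP-1 family genes (red) and all 215195 regions (grey), for every region, for regions at protein-coding starts (1 kb) and for all others (x axis), with Wilson 95% intervals. The red bars stand at 18.1%, 20.8% and 17.1%, and the grey bars at 13.7%, 13.1% and 13.8%.

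The motif was also counted for each gene. Each count is small and comes from a single locus, and differences between genes were not tested. Over all regions away from starts the share was 13.8%. In the windows, away from starts, the motif was in 8 of 23 regions at BATF, 5 of 15 at JUN and 5 of 19 at FOSB. It was in 4 of 17 at BATF3, 6 of 27 at ATF3, 3 of 16 at JUND and 2 of 12 at JUNB. The lowest counts were 3 of 25 at FOSL1, 1 of 30 at FOS and 0 of 28 at FOSL2. FOSL2, however, held an AP-1 motif 4 bp after its canonical TSS, and FOSL1 held a match that began at −1 bp from its own. ATF3 had 3 in the regions at its starts, at +3888, +7944 and +8311 bp, and JUNB had 1 at −1970 bp, inside its strong upstream peak. The wide peaks of JUND and FOSB held 3 and 1, at +5314, +6606 and +7145 bp and at +3190 bp, and those of JUN and FOS held none. The following sites are shown because each lay in the strongest region away from a start that held the motif in that window, with the motif in capitals and read on the strand of the gene, from hg38. The JUN sites lay at chr1:58779212-58779238 and chr1:58780152-58780178, the FOSB sites at chr19:45455884-45455910 and chr19:45456100-45456126, the BATF site at chr14:75554726-75554752, the ATF3 site at chr1:212559017-212559043 and the JUNB site at chr19:12786287-12786313.
JUN first site: cagagttccaTGACTCAaaaaaaaggg
JUN second site: aaccactaatTGAGTCAgggctgtttg
FOSB first site: ttcaggagccTGAGTCAccctgggaga
FOSB second site: gcatggggccTGAGTCAgggacagggt
BATF: tgatctagtaTGAGTCAcatgatctaa
ATF3: gcggtccgggTGAGTCAccggccccgc
JUNB: gcccactggcTGACTCAcaggcagccc

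Both FOSB sites lay in its strongest region, at −12 kb (118.5 and 132.2). The JUN sites shared the region 3.9 kb downstream of the JUN start, the BATF site lay in a region 32.2 kb downstream (26.2 and 34.7), the ATF3 site in a region at −50 kb (49.9 and 49.5) and the JUNB site in a region at −6 kb (79.6 and 86.9). Of the other motifs, the CRE was in 7 of the 282 regions (2.48%, 1.21 to 5.03%), against 0.632% of all regions. The CArG box was in 4.61% (2.71 to 7.73%) against 2.82%, and GGGCGG, the box of SP and KLF proteins, in 30.1% (25.1 to 35.7%) against 17.3%. TGTTTAC, bound by forkhead proteins, was in 11.0% (7.85 to 15.2%) against 10.3%. The estrogen response element was in 0 of 282 (Wilson upper limit 1.34%), which by a limit of 3 counts allows a share of up to 1.06%, against 0.135% of all regions. Start sites made up a larger share of these regions (77 of 282) than of all regions (32347 of 215195), and CRE and GGGCGG were more frequent at starts than away from them over all regions (2.21% against 0.353% and 51.7% against 11.2%). Away from starts the family's regions held the CRE in 4 of 205 (1.95%, 0.761 to 4.91%) and GGGCGG in 41 of 205 (15.1 to 26.0%). Both intervals lay above the shares of all such regions (0.353% and 11.2%). All of these motif intervals cover counting error only, as neighbouring regions share a locus. The family's regions there were also wider, with a median of 399 bp against 344 bp. The CRE and GGGCGG were not counted over equal widths, so whether the excess would remain was not tested.

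The genes that signal to AP-1 and those it is known to act on were described from lists chosen for their roles. All 14 genes of the upstream signalling list had a TSS peak in both replicates, with a median fold enrichment of 64.1. SRF, which binds the CArG box, had 166.1 and 172.0, and its coactivator MRTFA 161.5 and 144.6, whereas the kinase genes MAP2K4 (27.6 and 39.4) and MAP2K7 (19.6 and 16.8), which act upstream of the JUN kinases, were the weakest. All 13 other bZIP partner genes had a TSS peak in both, with a median of 76.4, led by ATF2, a partner of JUN, and MAFK, with means of 167.0 and 150.8, and ending with BATF2 (24.8) and MAF (17.8). The 10 other immediate early genes all had one, with a median of 80.7. IER3 (202.6) and NR4A1 (183.7) were the strongest, and ZFP36 (48.0) and KLF4 (46.4) the weakest.

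Of 12 genes known as AP-1 targets in various cells, 8 had a TSS peak in both replicates, 66.7% against the 79.3% of all protein-coding genes. CCND1, which encodes cyclin D1, had 257.5 and 258.1, and DUSP1, which encodes a phosphatase of MAP kinases, had 153.5 and 169.6. No TSS peak was called in either replicate at MMP3 and MMP9, which encode matrix metalloproteinases, or at CD44, which encodes the hyaluronan receptor. PLAU, which encodes urokinase, had a weak peak of 4.60 in replicate 1 only. MMP3, MMP9 and CD44 were thus below the call of both peak lists and PLAU below that of replicate 2. In these lists no −log10 q fell under 2.24 (replicate 1) or 2.07 (replicate 2). By the same measure, a TSS peak in both replicates, all 10 AP-1 genes had one. With only 12 targets, listed from various cells, the 66.7% beside the 79.3% of all genes is no statement about AP-1 targets in general.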

How the data were processed

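ATAC-seq peak lists of 2 CAMA-1 replicates were used. Per the labels, the authors trimmed reads with Trim Galore 0.6.5, aligned them with Bowtie2 2.3.5.1 and called peaks with MACS2 2.2.6 on hg38, a list for each replicate. The deposited values were a score, a fold enrichment (a ratio), −log10 p-values and −log10 q-values. Peak caller settings and the treatment of duplicate reads are not given in the sources used here. No count test was run, as the lists hold peaks and a single condition. Genes came from GENCODE release 44. Peaks of the replicates that overlapped by at least 1 bp were merged into regions. A TSS peak lay within 1 kb of any annotated TSS, and the strongest was used. Heights were recovered from the step of the fold enrichments, and a Poisson model with the recovered background gave back, to 0.01, the −log10 p of 100% of the peaks checked. Percentiles were taken over protein-coding genes. Height intervals were exact Poisson, height ratios exact binomial and shares Wilson, all at 95%. Motifs were searched on both strands. Functions were tested on simulated data. All 10 members were named, and other genes as the strongest and weakest of each list, or as neighbours without a TSS peak or at the strongest region. IQCN, HOOK2 and all 4 target genes without a TSS peak in both replicates were named after their values were seen. The members, lists and motifs were chosen with earlier results of these data known. Alternatives were stricter peaks, other TSS distances and windows, other measures and the omission of each replicate. Python 3.11.15, numpy 2.4.6, scipy 1.17.1, pysam 0.24.0 and matplotlib 3.10.9 were used. RNA-seq and copy number were not analysed here.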

Additional observations from a re-analysis of the deposited data

How the results depend on the processing

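All 10 members had a TSS peak in both replicates under each of the 7 alternatives tried for that count. The number of regions in the windows was 282. It was 90 with the 50000 strongest peaks of each replicate, 180 with 25 kb, 465 with 100 kb and 46 with the gene body alone, each of which follows from how much was searched or kept, and 329 to 337 when either replicate was left out. The median fold enrichment of the TSS peaks, 83.9, was 79.0 with a TSS within 100 bp and also with the most 5′ TSS alone, and 82.3 to 86.4 when either replicate was left out. Their median percentile, 75.4, was 71.7 with a TSS within 100 bp, 79.1 when each peak was divided by the median within 5 Mb, and 75.1 to 76.6 when either replicate was left out. The percent of regions with the AP-1 motif, 18.1, was 22.0 at a −log10 q of at least 10 (14.9 over all regions), 26.7 with the 50000 strongest peaks (20.1 over all regions), 20.6 with 25 kb, 15.9 with 100 kb, 23.9 in gene bodies, 7.09 around midpoints, and 15.4 to 15.8 when either replicate was left out (11.8 to 12.1 over all regions). No paired analysis was possible because the 2 samples used here form a single condition, with no groups to compare. With 2 replicates, the spread is known poorly, and heights of weak peaks near the lowest called height of 11 reads carry large counting error. The lists give no summits and no values below the threshold, so a missing peak sets no level.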
